A study of Mus musculus with 14 samples.

Results

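Genes of the NADPH oxidases and of the antioxidant defence were read from RNA-seq of mouse aortic valve leaflets. The set was a fixed list of 37 genes of 56941 in the table, grouped by what their products do. The list was chosen with earlier results of these data known. It held 6 genes of reactive oxygen sources (Nox4, Cyba, Ncf1, Ncf4, Rac2 and Xdh), 4 superoxide dismutases and catalase, 5 glutathione peroxidases, 7 peroxiredoxins and sulfiredoxin, 3 genes of the thioredoxin system, 7 of glutathione synthesis, recycling and conjugation, and 5 of the NRF2 pathway. All 37 passed the filter on low counts, which 19145 genes passed in all.

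All mice were wild type C57BL/6J males on a Breslow Western Diet, the Ctrl mice included. Their age is given as 8 weeks, which by the study's methods was the age before the 28 days of treatment. Ctrl mice (n = 4) received neither agent. LY mice (n = 2) received 3 mg/kg of LY272015, which blocks the serotonin receptor HTR2B, by intraperitoneal injection, on a schedule that differs between the labels and the series' description. AngII mice (n = 4) received angiotensin II, a peptide hormone that raises blood pressure and activates oxidases, at 1000 ng/kg/min from an osmotic pump for 28 days. AngII+LY mice (n = 4) received both. By the series' description the pumps were taken out 48 hours before the valves were collected, while the study's methods describe this for a subset of the mice, so whether a given AngII mouse was sampled during or after infusion is not certain. For 1 LY mouse and 3 AngII+LY mice the labels name the compound by a number other than LY272015, and the group was taken from the title. The hearts were perfused and the leaflets dissected, and each library is bulk RNA of 1 mouse.

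NADPH oxidases pass electrons from NADPH to oxygen and so make superoxide or hydrogen peroxide. Superoxide dismutases turn superoxide into hydrogen peroxide, which catalase splits. The glutathione peroxidases and the peroxiredoxins remove peroxide with electrons that come from glutathione or thioredoxin. The transcription factor NRF2, encoded by Nfe2l2, is held down by KEAP1 and switches on many of these genes when oxidants release it. In valve and vessel wall, angiotensin II is known as an activator of NADPH oxidases.

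The libraries held between 20990655 counts (AngII 4) and 73128220 counts (AngII 2). The mitochondrial share of counts was lowest in Ctrl mice (4.00 to 7.52%), then LY mice (8.62 to 9.76%), and spread from 9.83 to 25.5% among AngII mice and from 10.1 to 20.2% among AngII+LY mice. Markers of other cells than the valve's own were present in every mouse. The 11 markers of valve interstitial cells took 1.02 to 2.04% of counts in Ctrl and 1.26 to 1.90% in AngII mice but 0.543 to 0.968% in AngII+LY mice, below both without overlap (exact permutation test, two-sided, p = 0.0286 each), and all 11 had a negative log2 fold change in AngII+LY against AngII mice, 6 at an unadjusted p below 0.05. The summed share of 11 adipocyte markers ranged over 0.0989 to 0.140% for Ctrl, 0.0459 to 0.0799% for AngII and 0.0886 to 0.117% for AngII+LY mice, so that AngII mice lay below both (exact p = 0.0286 each). Gene by gene, 6 of the 11 were positive and 5 negative in AngII+LY against AngII mice (median log2 fold change 0.06). In AngII+LY against Ctrl mice 9 were negative (median -1.43), with 5 lower and 0 higher at an unadjusted p below 0.05. Lymphocyte markers, at 0.00306% at most, were also lower in AngII than in Ctrl mice (exact p = 0.0286). The summed share of 14 cardiomyocyte markers ranged over 0.967 to 3.74% of counts for Ctrl, 0.908 to 1.80% for AngII and 2.20 to 4.85% for AngII+LY mice, and the last did not overlap with AngII mice (exact permutation test, two-sided, p = 0.0286, the smallest that 4 against 4 mice can give). Smooth muscle markers took 0.925% of counts in Ctrl 1 against 0.0236 to 0.133% in the other Ctrl mice, and the atrial light chain Myl7 stood at 208649 normalised counts in Ctrl 2 and 155866 in AngII+LY 4 against 35811 at most elsewhere. The 15 myeloid markers summed to 0.107 to 0.274% in Ctrl 1 to 3 and 0.0585 to 0.0859% in AngII mice, with Ctrl 4 inside the AngII range (exact permutation test, two-sided, p = 0.0857), and none was at 0 in every mouse. In bulk RNA, fewer cells of a type and less RNA per cell cannot be told apart.

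Values are counts divided by library size after TMM normalisation (normalised counts), and differences are log2 fold changes of 1 edgeR quasi-likelihood fit over the 4 groups, each with its standard error (SE). A gene was called when its adjusted p over all 19145 genes was below 0.05 and its log2 fold change was beyond 0.5 in either direction. Since few genes passed the adjustment, the members at an unadjusted p below 0.05 are counted too, beside the same share over all genes. AngII against Ctrl and AngII+LY against AngII share the AngII mice, so a low value in AngII mice enters both, in opposite directions.

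In AngII against Ctrl mice 1 member was called, Gstm1, a glutathione transferase, which fell 1.98-fold. This was 2.70% of the members against 2.9% of all genes. At an unadjusted p below 0.05, 12 members (32.4%) were lower and 5 (13.5%) higher, where 12.6% of all genes were lower and 15% higher. The share of higher members was thus near that of all genes, and the share of lower members was above it. The members were chosen with earlier results of these data known, so here and below such shares describe them and do not test the set. The lower members were Cyba, Ncf1, Ncf4, Rac2, Sod3, Gpx3, Gpx4, Prdx2, Prdx5, Hmox1, Keap1 and Gstm1, and the higher members were Gpx8, Prdx1, Srxn1, Txn1 and Gclm. The 37 members had a median log2 fold change of -0.18, against -0.05 over all genes. The normalised counts of the groups did not overlap for 4 members that were lower (Cyba, Hmox1, Keap1 and Gstm1; 7.56% of all genes) and for 3 that were higher (Prdx1, Txn1 and Srxn1; 7.46% of all genes). DESeq2 called 8 members, 5 lower and 3 higher, and 13.8% of all genes.

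In AngII+LY against AngII mice 2 members rose and were called, Gpx4 by 2.12-fold and Prdx5 by 2.26-fold. Gpx4 encodes the glutathione peroxidase that reduces lipid hydroperoxides in membranes, and Prdx5 a peroxiredoxin found in mitochondria, peroxisomes and cytosol. They were 5.41% of the members against 0.919% of all genes. At an unadjusted p below 0.05, 8 members (21.6%) were higher, namely Ncf1, Sod2, Gpx4, Prdx2, Prdx5, Gss, Keap1 and Gstm1, and only Gpx8 was lower (2.70%), where 11.3% of all genes were higher and 13.6% lower. The median log2 fold change was 0.17 over the members and -0.02 over all genes. Groups did not overlap for 5 higher members (Gpx4, Prdx2, Prdx5, Gss and Gstm1; 5.45% of all genes) and for 2 lower members (Gpx8 and Prdx4; 5.66% of all genes). DESeq2 called 5 members, 4 higher and 1 lower, and 10.8% of all genes.

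**Figure D1:**
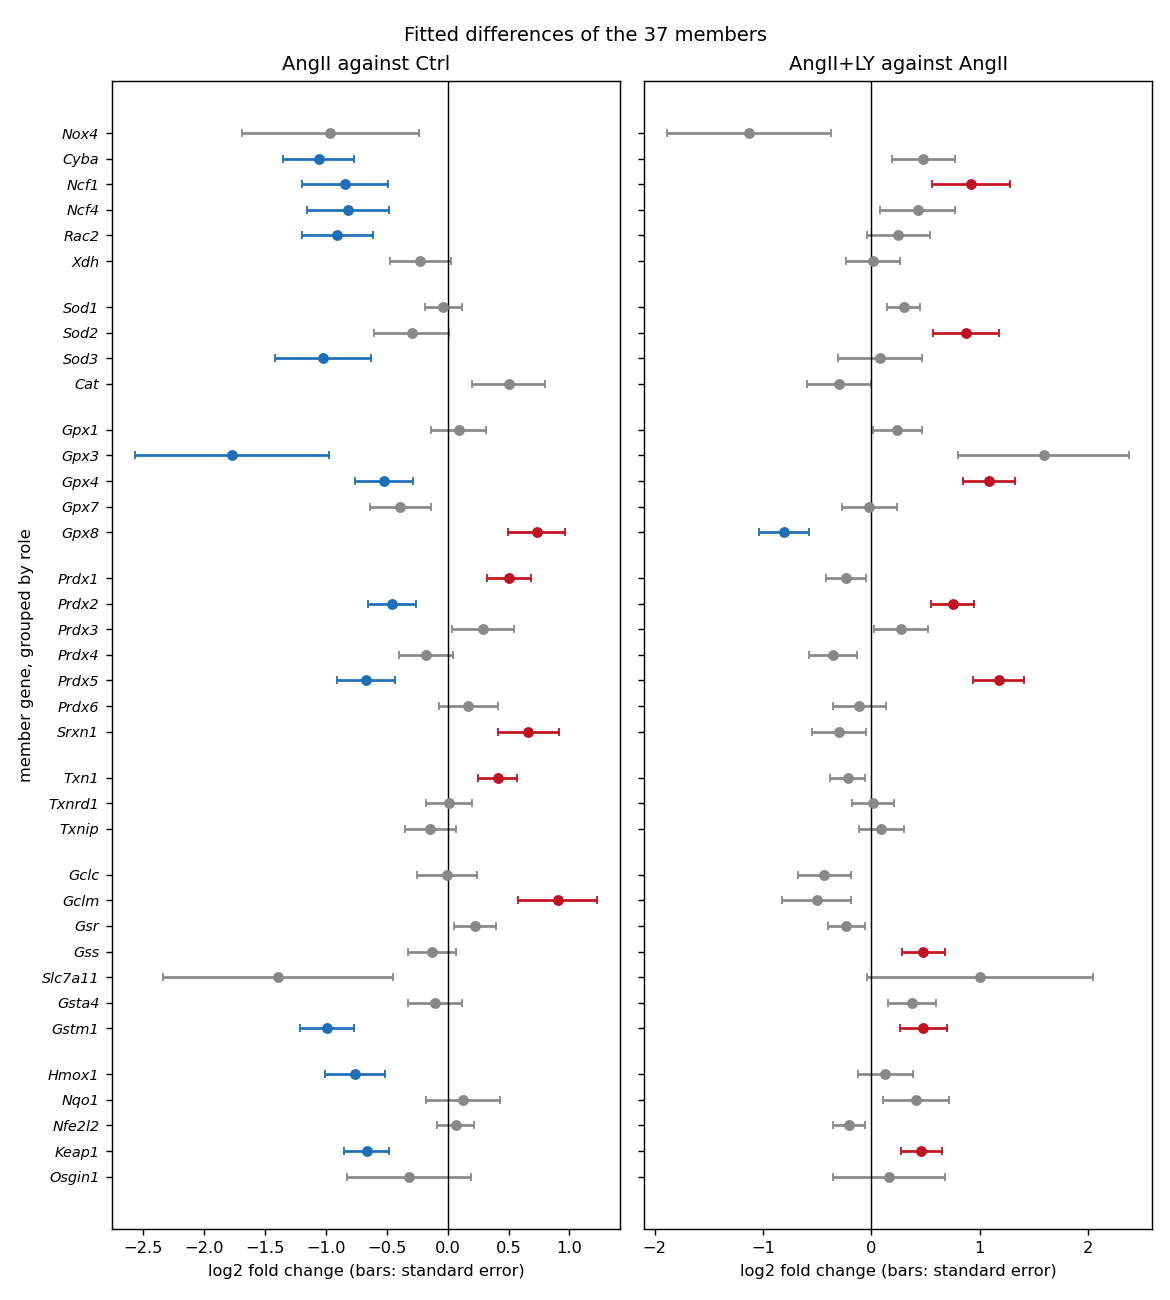
Log2 fold change of each of the 37 members (points) with its standard error (bars) in AngII against Ctrl (left) and AngII+LY against AngII (right), grouped by role; colour marks an unadjusted p below 0.05, blue for lower and red for higher. On the left, 4 of the 6 genes of oxygen sources are blue, and on the right Gpx4 and Prdx5, at 1.08 and 1.18, are the called members.

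The plot of log2 fold changes shows the members by role. Its widest bars belong to Nox4, Gpx3 and Slc7a11, whose normalised counts spread most over the 14 mice. The highest mouse was 24.5 times the lowest for Nox4 and 14.2 times for Gpx3, against 1.51 times for Nfe2l2, the member with the narrowest spread.

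Per kilobase of exon, the most abundant members in Ctrl mice were Gstm1, with a median of 14217 normalised counts per kb (range 9971 to 18756), Gpx4 with 10961 (8186 to 14643), Gpx1 with 10602 (8802 to 11961) and Prdx1 with 7473 (6432 to 7693). The ranges of Gstm1, Gpx4 and Gpx1 overlapped, so their order does not hold within the spread of the 4 mice. The length joins the exons of all annotated transcripts of a gene and can exceed the transcript expressed, so levels between genes compare only roughly. The oxidase subunits lay lower and differed among themselves. Cyba had a median of 2176 per kb, Rac2 of 314, Ncf1 of 203, Ncf4 of 202 and Nox4 of 70.7, and Slc7a11, the cystine transporter, was last with 2.33.

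Of the 6 genes of oxygen sources, 4 were lower in AngII than in Ctrl mice at an unadjusted p below 0.05, Cyba, Ncf1, Ncf4 and Rac2, and none was called. Cyba, the membrane subunit that the NOX catalytic subunits need for stability, lies on chromosome 8 at 123150422 to 123159706 (GRCm39, minus strand). Cyba stood at 9504, 5722, 4308 and 4042 normalised counts in Ctrl mice, 5304 and 5281 in LY mice, 3759, 3425, 2406 and 1664 in AngII mice, and 2850, 4026, 4488 and 4448 in AngII+LY mice. Each AngII mouse was below each Ctrl and LY mouse, and 3 of 4 AngII+LY mice lay above the AngII range. AngII mice differed from Ctrl mice by -1.06 ± 0.29 (SE) on the log2 scale, at an unadjusted p of 0.00252 and an edgeR adjusted p of 0.0569. Without Ctrl 1, the highest mouse, it was -0.73. AngII+LY mice differed from AngII mice by 0.48 ± 0.29 at an unadjusted p of 0.118.

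Ncf1, the cytosolic subunit that organises the active complex, stood at 997, 1049, 455 and 492 in Ctrl, 1092 and 559 in LY, 286, 407, 377 and 672 in AngII, and 590, 921, 937 and 722 in AngII+LY mice. Ctrl mice fell into a high and a low pair, and AngII 4 lay above the low pair. The difference was -0.84 ± 0.36 on the log2 scale in AngII against Ctrl mice (unadjusted p 0.0321, edgeR adjusted p 0.146) and 0.92 ± 0.36 in AngII+LY against AngII mice (unadjusted p 0.0214, adjusted p 0.135). Ncf4, a cytosolic subunit that binds membrane phosphoinositides, stood at 481, 630, 452 and 356 in Ctrl, 380 and 418 in LY, 208, 257, 375 and 245 in AngII, and 240, 625, 327 and 271 in AngII+LY mice. Of the AngII mice, only AngII 3 reached the lowest Ctrl mouse (-0.82 ± 0.34 in AngII against Ctrl, unadjusted p 0.0284, adjusted p 0.138), and the AngII+LY mice spread over both.

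Rac2, the small GTPase of blood cells that completes the phagocyte complex, stood at 1572, 1129, 1102 and 540 in Ctrl, 1275 and 873 in LY, 607, 522, 696 and 476 in AngII, and 559, 697, 819 and 682 in AngII+LY mice. Ctrl 4 lay among the AngII mice and the other Ctrl mice above all of them. Rac2 differed by -0.90 ± 0.29 on the log2 scale in AngII against Ctrl mice (unadjusted p 0.00698, edgeR adjusted p 0.0779) and -0.65 ± 0.28 in AngII+LY against Ctrl mice (unadjusted p 0.0366, adjusted p 0.328).

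The partners Cybb and Rac1 are not among the 37. The catalytic subunit of the phagocyte oxidase, Cybb, did not move with them, at 433 to 1871 normalised counts in Ctrl and 480 to 2313 in AngII mice and a log2 fold change of 0.20 (unadjusted p 0.649). The ubiquitous GTPase Rac1 differed by 0.42 (unadjusted p 0.0690). Of 13 further oxidase subunits and partners tested, these included, 0 were higher and 2 lower at an unadjusted p below 0.05, 6 had a positive and 7 a negative log2 fold change, and the median was -0.34.

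The myeloid markers moved with the phagocyte subunits, as 8 of the 15 were lower in AngII against Ctrl mice at an unadjusted p below 0.05, with a median log2 fold change of -0.99. With the myeloid marker score of each library as a covariate, the AngII difference was -0.50 for Cyba (unadjusted p 0.105), -0.36 for Rac2 (p 0.248), -0.22 for Ncf1 (p 0.558) and -0.47 for Ncf4 (p 0.245), and none stayed below 0.05. The score was itself measured in these libraries, so the covariate and the group cannot be fully told apart.

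**Figure D2:**
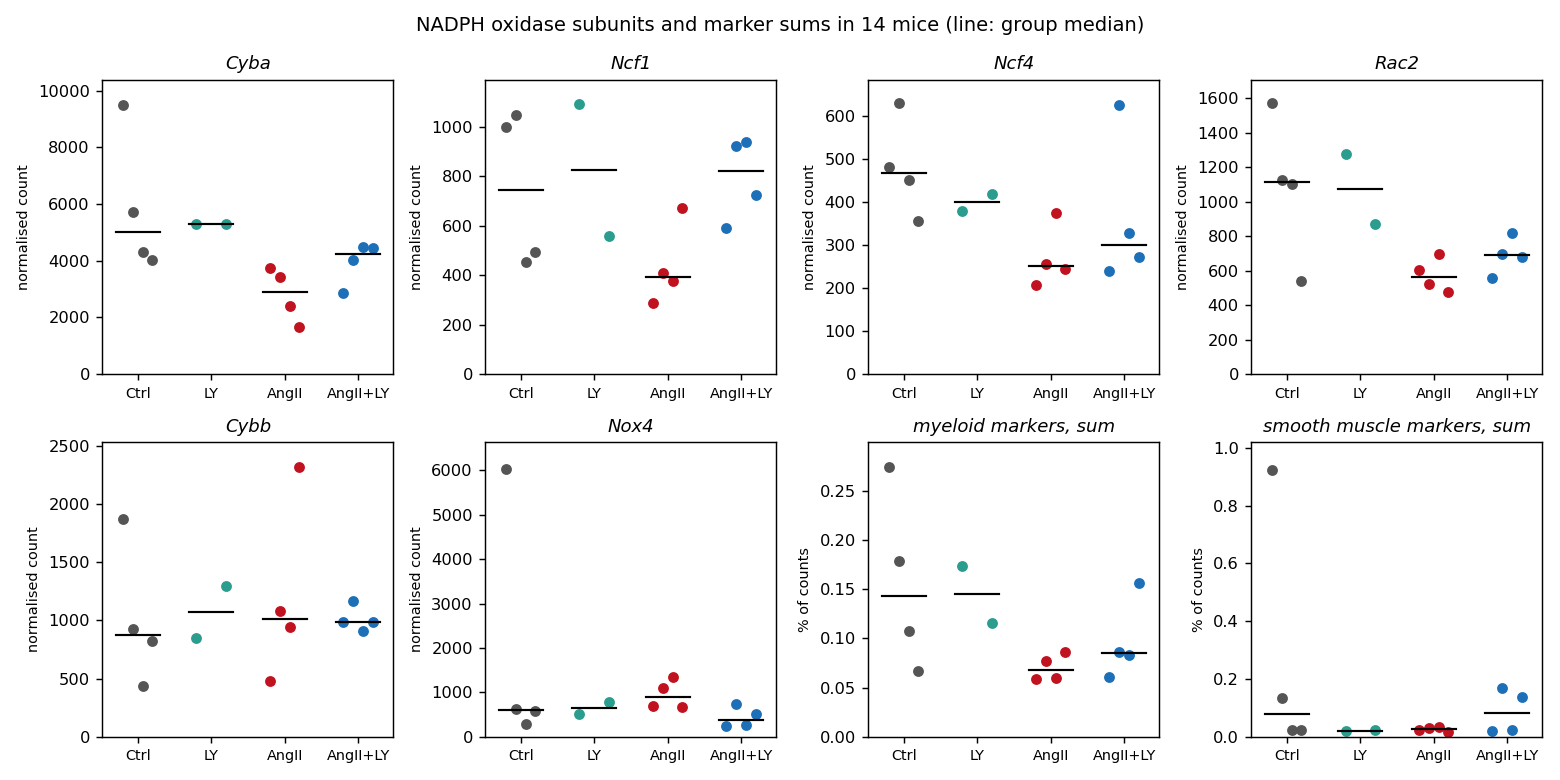
Normalised counts of 5 oxidase genes of the phagocyte type and of Nox4, and the summed share of counts (%) of myeloid and smooth muscle markers, with 1 point per mouse, replicates in order from left to right within each group, and a line at the group median. The 4 AngII points of Cyba lie at 3759 and below and all Ctrl points at 4042 and above, and for Nox4 and the smooth muscle markers the point of Ctrl 1 stands far above all others.

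Nox4, a catalytic subunit that releases hydrogen peroxide and is common in smooth muscle and fibroblasts, rested on 1 mouse. It lies on chromosome 7 at 86895304 to 87047918 (GRCm39, plus strand). Nox4 stood at 6026, 617, 294 and 580 in Ctrl, 505 and 777 in LY, 701, 1100, 1348 and 665 in AngII, and 246, 732, 259 and 515 in AngII+LY mice. Ctrl 1 was several times any other mouse, and every AngII mouse was above the other Ctrl mice. Over all mice the log2 fold change was -0.96 ± 0.73 in AngII against Ctrl (unadjusted p 0.205), and without Ctrl 1 it was 0.95 (unadjusted p 0.0381, edgeR adjusted p 0.197). AngII+LY mice differed from AngII mice by -1.13 ± 0.76 (unadjusted p 0.157), and with the spread estimated without Ctrl 1 the unadjusted p was 0.0114. Against Ctrl mice, AngII+LY mice were at -2.09 ± 0.76 (unadjusted p 0.0149), and -0.18 without Ctrl 1 (p 0.674). Ctrl 1 was also the highest mouse for the smooth muscle actin Acta2, at 284730 normalised counts against 3938 to 52820 in the other 13 mice.

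Xdh, which makes superoxide when its product works as xanthine oxidase, stood at 3436, 7512, 5329 and 3323 in Ctrl, 7497 and 4505 in LY, 3853, 4393, 4866 and 3663 in AngII, and 4136, 3687, 4693 and 4454 in AngII+LY mice. All AngII and AngII+LY mice lay within the range of Ctrl mice. The log2 fold changes were -0.22 ± 0.25 and 0.01 ± 0.25 in the 2 comparisons, far from the threshold.

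Of the dismutases and catalase, Sod3 was lower in AngII than in Ctrl mice and Sod2 higher in AngII+LY than in AngII mice, both at an unadjusted p below 0.05. Sod3, the extracellular dismutase of the vessel wall, stood at 38024, 13541, 8879 and 14928 in Ctrl, 9257 and 16074 in LY, 12462, 10276, 8000 and 6300 in AngII, and 6773, 14491, 9291 and 8580 in AngII+LY mice. Ctrl 1 again stood above all other mice, and the groups overlapped. The difference of -1.02 ± 0.39 in AngII against Ctrl mice (unadjusted p 0.0198, edgeR adjusted p 0.118) was -0.42 without Ctrl 1 (p 0.184). Against Ctrl mice, AngII+LY mice were at -0.95 ± 0.39 (unadjusted p 0.0289), and -0.35 without Ctrl 1 (p 0.271).

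Sod2, the mitochondrial dismutase, stood at 9245, 21211, 18510 and 12572 in Ctrl, 17704 and 14589 in LY, 12994, 7895, 17775 and 11495 in AngII, and 19646, 14265, 26914 and 31042 in AngII+LY mice. AngII+LY 2 lay below AngII 3, and the other AngII+LY mice lay above all AngII mice. Sod2 differed by 0.87 ± 0.31 on the log2 scale (unadjusted p 0.0124, edgeR adjusted p 0.109), and 0.10 with the cardiomyocyte marker score as a covariate (p 0.631). Sod1, the cytosolic dismutase, ranged over 5441 to 7060 in Ctrl and 5174 to 7354 in AngII mice, with 7154 to 8282 in AngII+LY mice, all above the Ctrl mice (log2 fold change against Ctrl 0.27, unadjusted p 0.0965). Exons of the opposite strand gene Scaf4 cover 48.8% of the exon bases of Sod1, and no strand setting is stated. Catalase (Cat), which splits hydrogen peroxide, was highest in AngII 4 at 20624, and its log2 fold change in AngII against Ctrl mice was 0.50 ± 0.30 (unadjusted p 0.112), or 0.13 without AngII 4.

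The glutathione peroxidases split in direction. Gpx1, Gpx3 and Gpx4 are selenoproteins, as is the thioredoxin reductase Txnrd1, and their messages use the codon TGA for selenocysteine. The windows of 21 bases around that codon are printed because Gpx4, the called peroxidase, is of this kind. In AngII+LY against AngII mice the log2 fold changes were 0.24 for Gpx1, 1.59 for Gpx3, 1.08 for Gpx4 and 0.01 for Txnrd1. Of selenoprotein genes outside the members, Msrb1 was at 1.13 and Selenop at -0.53. Whether direction goes with selenocysteine was not tested. Capitals mark the TGA codon, read in frame in a coding exon (GENCODE annotation, GRCm39, plus strand in each case).
Gpx1, chr9:108216635-108216655: aatgtcgcgtctctcTGAggc
Gpx3, chr11:54798067-54798087: aacgtagccagctacTGAggt
Gpx4, chr10:79890556-79890576: aacgtggcctcgcaaTGAggc
Txnrd1, chr10:82731856-82731876: ctccagtctggctgcTGAggt

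Gpx4 lies on chromosome 10 at 79883000 to 79892273 (GRCm39, plus strand). Gpx4 stood at 19022, 25245, 18771 and 14112 normalised counts in Ctrl, 21908 and 17058 in LY, 15989, 12415, 15452 and 9821 in AngII, and 23334, 21078, 30616 and 38874 in AngII+LY mice. No AngII+LY mouse reached down to the AngII range, and AngII+LY 3 and 4 were above all other mice. Gpx4 rose from AngII to AngII+LY mice by 1.08 ± 0.24 on the log2 scale (unadjusted p 0.000446, edgeR adjusted p 0.0497). Leaving out any 1 mouse gave 0.90 to 1.23 with adjusted p of 0.0343 to 0.126, so the call did not hold in each case. With the cardiomyocyte score as a covariate the difference was 0.65 (unadjusted p 0.0134). Against Ctrl mice, AngII mice differed by -0.52 ± 0.24 (unadjusted p 0.0458, adjusted p 0.173), which was 0.02 after correction for GC content, and AngII+LY mice by 0.56 ± 0.24 (unadjusted p 0.0331, adjusted p 0.316).

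Gpx8, an endoplasmic reticulum enzyme, showed the opposite order. It stood at 5728, 3632, 2526 and 4034 in Ctrl, 3668 and 4617 in LY, 5268, 5740, 6953 and 8543 in AngII, and 3898, 3203, 3545 and 4462 in AngII+LY mice. Ctrl 1 lay within the AngII range, and all AngII+LY mice lay below all AngII mice. Gpx8 differed by 0.73 ± 0.23 on the log2 scale in AngII against Ctrl mice (unadjusted p 0.00678, edgeR adjusted p 0.0773) and -0.81 ± 0.23 in AngII+LY against AngII mice (unadjusted p 0.00358, adjusted p 0.0706). After correction for GC content Gpx8 stayed at an unadjusted p below 0.05 in neither comparison.

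Gpx3, the secreted glutathione peroxidase of plasma, stood at 15352, 152959, 25438 and 14821 in Ctrl, 54974 and 21415 in LY, 14088, 21435, 14931 and 10797 in AngII, and 20081, 13621, 23180 and 127569 in AngII+LY mice. Ctrl 2, AngII+LY 4 and LY 1 held the highest values, in the same order as for Myl7. The log2 fold change of -1.77 ± 0.80 in AngII against Ctrl mice (unadjusted p 0.0426, edgeR adjusted p 0.167) was -0.27 without Ctrl 2 (p 0.667). That of 1.59 ± 0.79 in AngII+LY against AngII mice (unadjusted p 0.0635) was 0.31 without AngII+LY 4 (p 0.657). On the opposite strand, exons of other genes cover 85.0% of the exon bases of Gpx3 (Tnip1) and 85.3% of those of Gpx1, and as no strand setting is stated, reads of the partners cannot be told apart. Gpx1, the cytosolic enzyme, ranged over 10888 to 22606 in the 14 mice and Gpx7, a further endoplasmic reticulum enzyme, over 1029 to 2645. Their log2 fold changes in AngII against Ctrl mice were 0.09 ± 0.22 and -0.39 ± 0.25, short of the threshold.

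**Figure D3:**
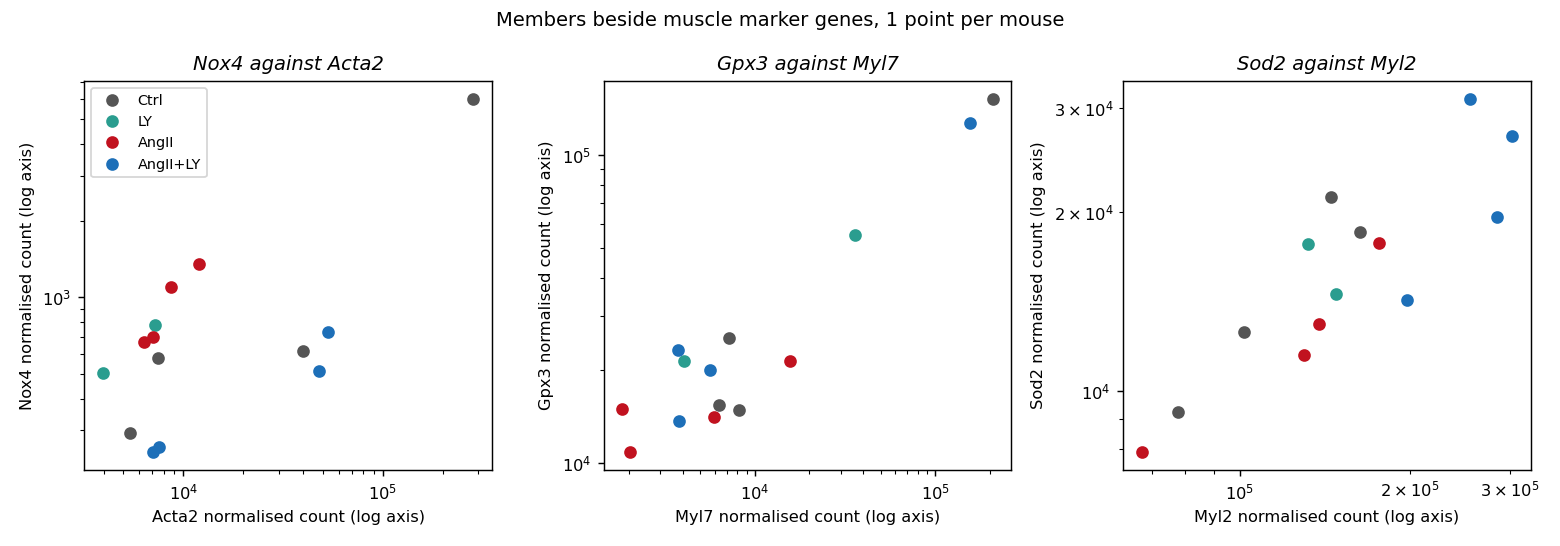
Normalised counts of Nox4 against smooth muscle Acta2, Gpx3 against atrial Myl7 and Sod2 against ventricular Myl2, with 1 point per mouse coloured by group and both axes logarithmic. The points at the upper right are Ctrl 1 for Nox4 (6026), Ctrl 2 and AngII+LY 4 for Gpx3 (152959 and 127569), and AngII+LY 3 and 4 for Sod2 (26914 and 31042), with Ctrl 2 (21211) next by Sod2 at a lower Myl2.

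The plot of members beside muscle markers sets 3 members beside a muscle gene each. For Nox4 and Gpx3 the highest mice were also the highest for Acta2 and Myl7. For Sod2 the match was looser. The ventricular light chain Myl2 stood at 197160 to 303352 normalised counts in AngII+LY mice, 67090 to 176075 in AngII, 77929 to 162861 in Ctrl and 132235 to 147986 in LY mice, but AngII+LY 2, with high Myl2, was low in Sod2 at 14265. These markers were chosen after the values were seen, and the part of smooth muscle in the Nox4 values was not tested. With the cardiomyocyte score as a covariate, Gpx3 was at -0.73 in AngII against Ctrl mice (unadjusted p 0.145) and at -0.86 in AngII+LY against AngII mice (p 0.189), the latter with its sign turned.

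The peroxiredoxins, which reduce peroxides with a reactive cysteine, also split. Prdx5 lies on chromosome 19 at 6884065 to 6887792 (GRCm39, minus strand), and exons of the opposite strand gene Trmt112 cover 29.2% of its exon bases. Prdx5 stood at 14042, 21272, 19030 and 13377 in Ctrl, 15662 and 14714 in LY, 13392, 8663, 12435 and 8040 in AngII, and 20674, 17092, 29563 and 28838 in AngII+LY mice. AngII 1 lay just above the lowest Ctrl mouse, and the AngII+LY range began above the AngII range. Prdx5 rose from AngII to AngII+LY mice by 1.18 ± 0.24 (unadjusted p 0.000179, edgeR adjusted p 0.0497). Leaving out any 1 mouse gave adjusted p of 0.0299 to 0.126, and the cardiomyocyte covariate gave 0.71 (unadjusted p 0.00471). In AngII against Ctrl mice the difference was -0.67 ± 0.24 (unadjusted p 0.0123, adjusted p 0.0963), and in AngII+LY against Ctrl mice 0.51 ± 0.23 (unadjusted p 0.0476, adjusted p 0.358).

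Prdx2, a cytosolic peroxiredoxin abundant in red cells, stood at 15988, 23347, 19942 and 15278 in Ctrl, 18049 and 15718 in LY, 16680, 11918, 14712 and 10939 in AngII, and 21189, 18305, 25017 and 26923 in AngII+LY mice. All AngII+LY mice lay above all AngII mice, as for Prdx5. Prdx2 differed by -0.46 ± 0.20 on the log2 scale in AngII against Ctrl mice (unadjusted p 0.0360, edgeR adjusted p 0.153) and 0.75 ± 0.20 in AngII+LY against AngII mice (unadjusted p 0.00187, adjusted p 0.0618). With the cardiomyocyte covariate the latter was 0.38 (unadjusted p 0.0546).

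Prdx1, a cytosolic peroxiredoxin and known target of NRF2, went the other way. It stood at 32010, 31460, 26763 and 30734 in Ctrl, 28434 and 31592 in LY, 35957, 36774, 49390 and 49401 in AngII, and 42883, 30166, 38546 and 34241 in AngII+LY mice. Every AngII mouse was above every Ctrl mouse, and the AngII+LY mice overlapped both. The log2 fold change was 0.50 ± 0.18 in AngII against Ctrl mice (unadjusted p 0.0148, edgeR adjusted p 0.104) and -0.23 ± 0.18 in AngII+LY against AngII mice (unadjusted p 0.219).

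Srxn1, sulfiredoxin, which restores over-oxidised peroxiredoxins, stood at 3206, 2509, 2715 and 3027 in Ctrl, 4185 and 2788 in LY, 3411, 3937, 3288 and 7637 in AngII, and 3166, 3454, 4368 and 3774 in AngII+LY mice. AngII mice lay above Ctrl mice without overlap, but AngII 4, the library of lowest depth, held much of the difference. It was 0.66 ± 0.25 on the log2 scale over all mice (unadjusted p 0.0184, edgeR adjusted p 0.114) and 0.31 without AngII 4 (p 0.110).

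Prdx3, the mitochondrial peroxiredoxin, stood at 5505, 10462, 8929 and 7206 in Ctrl, 8788 and 6797 in LY, 8330, 6597, 13239 and 11151 in AngII, and 13417, 8205, 12504 and 13326 in AngII+LY mice. It was higher in AngII+LY than in Ctrl mice by 0.56 ± 0.25 (unadjusted p 0.0404, edgeR adjusted p 0.338), with AngII+LY 2 inside the Ctrl range. Prdx4, of the endoplasmic reticulum, stood at 6713, 3576, 2899 and 4148 in Ctrl, 3547 and 4538 in LY, 3857, 3999, 3941 and 3540 in AngII, and 2677, 2742, 3422 and 3160 in AngII+LY mice. All AngII+LY mice lay below all AngII mice, at a log2 fold change of -0.36 ± 0.22 (unadjusted p 0.130). Against Ctrl mice the difference was -0.53 ± 0.22 (unadjusted p 0.0298), and -0.24 without Ctrl 1 (p 0.201). Prdx6, which also reduces phospholipid peroxides, ranged over 9149 to 22186 with its top in AngII 4, and differed by 0.17 ± 0.24 in AngII against Ctrl mice.

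**Figure D4:**
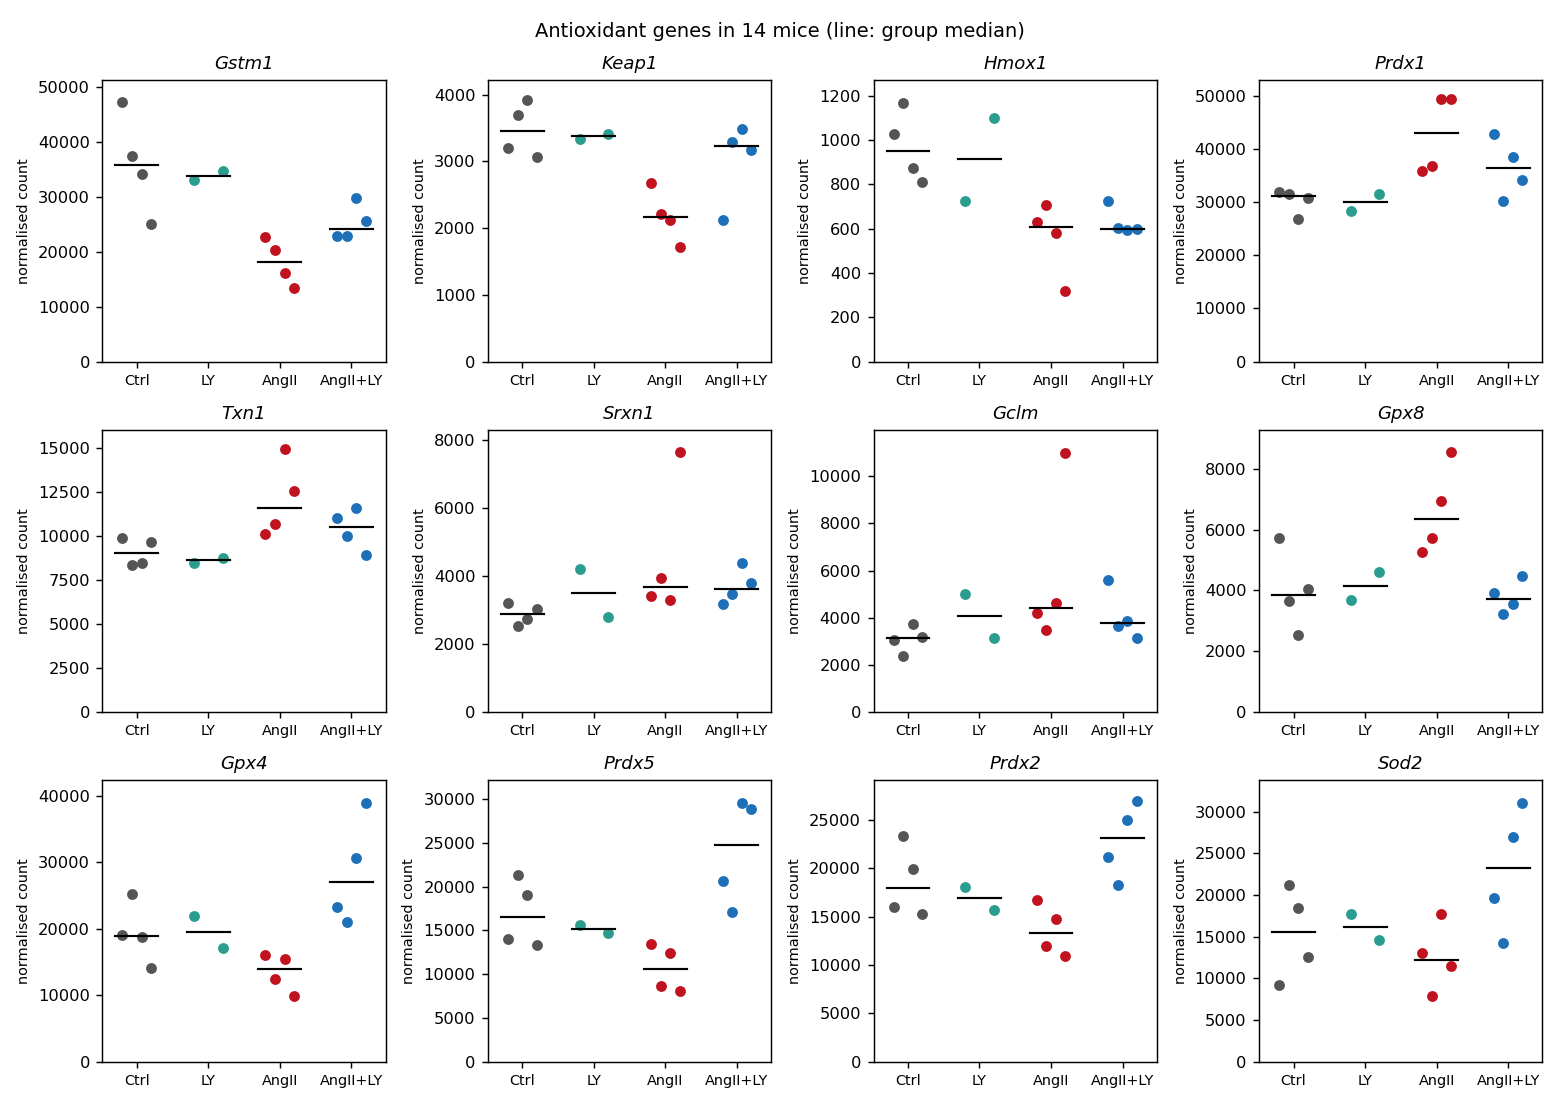
Normalised counts of 12 antioxidant genes with 1 point per mouse, replicates in order from left to right within each group, a line at the group median and axes that start at 0. In the bottom row the 4 AngII+LY points of Gpx4, Prdx5 and Prdx2 all lie above the 4 AngII points, and for Srxn1 and Gclm the highest point is AngII 4 (7637 and 10979).

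In the thioredoxin system Txn1 was higher in AngII mice. Txn1, the cytosolic thioredoxin that hands electrons to peroxiredoxins, stood at 9873, 8335, 8437 and 9653 in Ctrl, 8468 and 8770 in LY, 10108, 10672, 14939 and 12554 in AngII, and 11028, 10016, 11562 and 8915 in AngII+LY mice. All AngII mice exceeded all Ctrl and LY mice, the lowest by a small margin. AngII mice differed from Ctrl mice by 0.41 ± 0.16 on the log2 scale (unadjusted p 0.0225, edgeR adjusted p 0.124). Txnrd1, the cytosolic thioredoxin reductase, ranged over 1982 to 3546 and Txnip, which binds and inhibits thioredoxin, over 14347 to 32124. Their log2 fold changes in AngII against Ctrl mice were 0.01 ± 0.19 and -0.14 ± 0.21.

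Among the glutathione genes, Gstm1 was the one called in AngII mice. Gstm1, a transferase that couples glutathione to electrophiles, lies on chromosome 3 at 107919380 to 107925380 (GRCm39, minus strand). It stood at 47171, 37443, 34070 and 25076 in Ctrl, 33038 and 34661 in LY, 22712, 20262, 16094 and 13325 in AngII, and 22788, 22866, 29821 and 25510 in AngII+LY mice. Each AngII mouse was below each mouse of the other 3 groups, though AngII 1 lay only just below AngII+LY 1 and 2. Gstm1 fell by 0.99 ± 0.22 on the log2 scale in AngII against Ctrl mice (unadjusted p 0.000438, edgeR adjusted p 0.0451, DESeq2 adjusted p 0.000791). Leaving out any 1 mouse gave -1.13 to -0.83 with edgeR adjusted p of 0.0203 to 0.135. AngII+LY mice differed from AngII mice by 0.48 ± 0.22 (unadjusted p 0.0446, adjusted p 0.191), and in AngII+LY against Ctrl mice by -0.51 ± 0.22 (unadjusted p 0.0340, adjusted p 0.320). Gstm1 has close paralogs, and reads shared with them could have been split or dropped in the counting.

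Gclm, the modifier subunit of the enzyme that starts glutathione synthesis, stood at 3031, 2358, 3747 and 3196 in Ctrl, 4984 and 3117 in LY, 4180, 3455, 4617 and 10979 in AngII, and 5581, 3646, 3869 and 3151 in AngII+LY mice. AngII 4 held more than any other mouse, and AngII 2 lay within the Ctrl range. The log2 fold change of 0.90 ± 0.32 (unadjusted p 0.0140, edgeR adjusted p 0.102) was 0.41 without AngII 4 (p 0.104), and that of -0.51 in AngII+LY against AngII mice was -0.01. Gss, glutathione synthetase, stood at 1232, 1550, 1036 and 1219 in Ctrl, 1181 and 825 in LY, 1357, 1236, 961 and 1042 in AngII, and 1418, 1478, 1790 and 1745 in AngII+LY mice. The AngII+LY mice lay above the AngII mice without overlap (0.48 ± 0.20, unadjusted p 0.0295, edgeR adjusted p 0.157). With the cardiomyocyte covariate Gss did not stay at an unadjusted p below 0.05. Exons of opposite strand genes, Myh7b among them, cover 32.7% of its exon bases.

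The other genes of this group did not pass 0.05 in any comparison. Gclc, the catalytic subunit of the same enzyme as Gclm, ranged over 1174 to 3088 and differed by 0.00 ± 0.24 in AngII against Ctrl mice. Gsr, which regenerates glutathione, ranged over 1964 to 4096 (0.23 ± 0.17), and Gsta4, a transferase for lipid aldehydes, over 3163 to 6816 (-0.10 ± 0.22). Slc7a11, which imports the cystine for glutathione, was near the floor at 0 to 72 normalised counts, and its difference of -1.39 ± 0.94 (unadjusted p 0.156) was not detectable at this depth.

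Of the NRF2 group, the inhibitor was lower in AngII mice and the factor itself hardly differed. Keap1, which holds NRF2 for degradation, stood at 3205, 3700, 3914 and 3071 in Ctrl, 3341 and 3414 in LY, 2680, 2212, 2119 and 1714 in AngII, and 2121, 3285, 3491 and 3173 in AngII+LY mice. Every AngII mouse was below every Ctrl mouse, and only AngII+LY 1 fell in the AngII range. The log2 fold change was -0.66 ± 0.19 in AngII against Ctrl mice (unadjusted p 0.00307, edgeR adjusted p 0.0608), and -0.18 after GC correction. AngII+LY mice were above AngII mice by 0.46 ± 0.19 (unadjusted p 0.0269, adjusted p 0.150). Nfe2l2 itself ranged over 6920 to 8636 in Ctrl and 7369 to 8477 in AngII mice, a difference of 0.07 ± 0.15 (unadjusted p 0.663).

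Hmox1, haem oxygenase, a target of NRF2 that macrophages also express highly, stood at 1027, 1170, 874 and 813 in Ctrl, 727 and 1102 in LY, 630, 706, 582 and 318 in AngII, and 724, 603, 595 and 599 in AngII+LY mice. Both AngII groups lay below all Ctrl mice. Hmox1 differed by -0.76 ± 0.25 on the log2 scale in AngII against Ctrl mice (unadjusted p 0.00778, edgeR adjusted p 0.0811), -0.60 with the myeloid covariate (p 0.0666), and -0.63 ± 0.24 in AngII+LY against Ctrl mice (unadjusted p 0.0220, adjusted p 0.280). Nqo1, a quinone reductase and classic NRF2 target, ranged over 1279 to 3645 (0.13 ± 0.30), and Osgin1, an oxidative stress response gene, over 83 to 844 (-0.32 ± 0.51).

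NRF2 acts through the antioxidant response element, whose core is TGACNNNGC. This core was searched on both strands in the 300 bases from 250 before to 50 after the start of each gene's canonical transcript (GENCODE annotation, GRCm39). It was found in 6 of the 37 members (16.2%) and in 2706 of 21751 promoters of all protein-coding genes (12.4%). Of the 5 members higher in AngII mice 3 held it, Gclm, Prdx1 and Srxn1, and of the 12 lower members 0 did. Of these 3, only Prdx1 stayed at an unadjusted p below 0.05 without AngII 4, and only Srxn1 after correction for GC content. Whether the split by direction differs from the share over all genes was not tested. These 6 windows are shown because they put the letters beside the direction of each gene, with the match in capitals and 10 bases on each side. The match reads on the opposite strand in all but Prdx6, and where NNN is TCA, as in Prdx1, it overlaps the AP-1 motif TGACTCA.
Gclm, chr3:122039062-122039090, plus strand: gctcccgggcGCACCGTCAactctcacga
Prdx1, chr4:116542653-116542681, plus strand: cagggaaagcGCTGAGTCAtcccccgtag
Srxn1, chr2:151947462-151947490, plus strand: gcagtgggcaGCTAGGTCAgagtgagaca
Prdx6, chr1:161079143-161079171, minus strand: ccacttcctcTGACTTAGCccacgtcaca
Sod1, chr16:90017303-90017331, plus strand: ggcgcgctgtGCAAAGTCAgtgacaatcc
Txnrd1, chr10:82694938-82694966, plus strand: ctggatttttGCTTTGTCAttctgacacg

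The matches lie 54 bases before the start site in Gclm, 78 in Prdx1, 63 in Prdx6, 95 in Sod1 and 65 in Txnrd1, and 29 bases after it in Srxn1. Prdx6, Sod1 and Txnrd1 hold the letters without a difference in AngII against Ctrl mice. A match is a description of these letters and not a binding site. Its absence from Nqo1, Hmox1 or Gstm1 says only that the letters are not in this window.

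The direction of the members also went with the base composition of their exons. The 12 lower members in AngII against Ctrl mice had a median GC content of 54.1% (51.1 to 59.9%) and the 5 higher members 44.7% (42.8 to 51.7%), against 48.6% over all genes. Across the 37 members, Spearman's rho between GC content and log2 fold change was -0.45, and across 19043 genes it was -0.54; genes are not independent replicates and share these libraries. For AngII+LY against AngII mice the rho was 0.52 over the members and 0.43 over all genes. After a correction of each library for GC content, 4 members were higher (Srxn1, Txn1, Cat and Gpx1; 8.81% of all genes) and 4 lower (Nox4, Cyba, Prdx4 and Gstm1; 6.6% of all genes) in AngII against Ctrl mice at an unadjusted p below 0.05. Nox4 and Prdx4 had their highest value in Ctrl 1, and in the uncorrected fit Nox4 turned sign without that mouse. After the GC correction Gstm1 was at -0.63 (unadjusted p 0.00247) and Cyba at -0.61 (p 0.0179). In AngII+LY against AngII mice Gpx4 was then at 0.63 (p 0.00852) and Prdx5 at 0.75. Of the 9 members below 0.05 in that comparison, 4 stayed so after the correction, namely Sod2, Gpx4, Prdx2 and Prdx5. The other 5, Ncf1, Gpx8, Gss, Keap1 and Gstm1, did not. Whether the GC relation arose in the tissue or in the libraries was not tested.

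**Figure D5:**
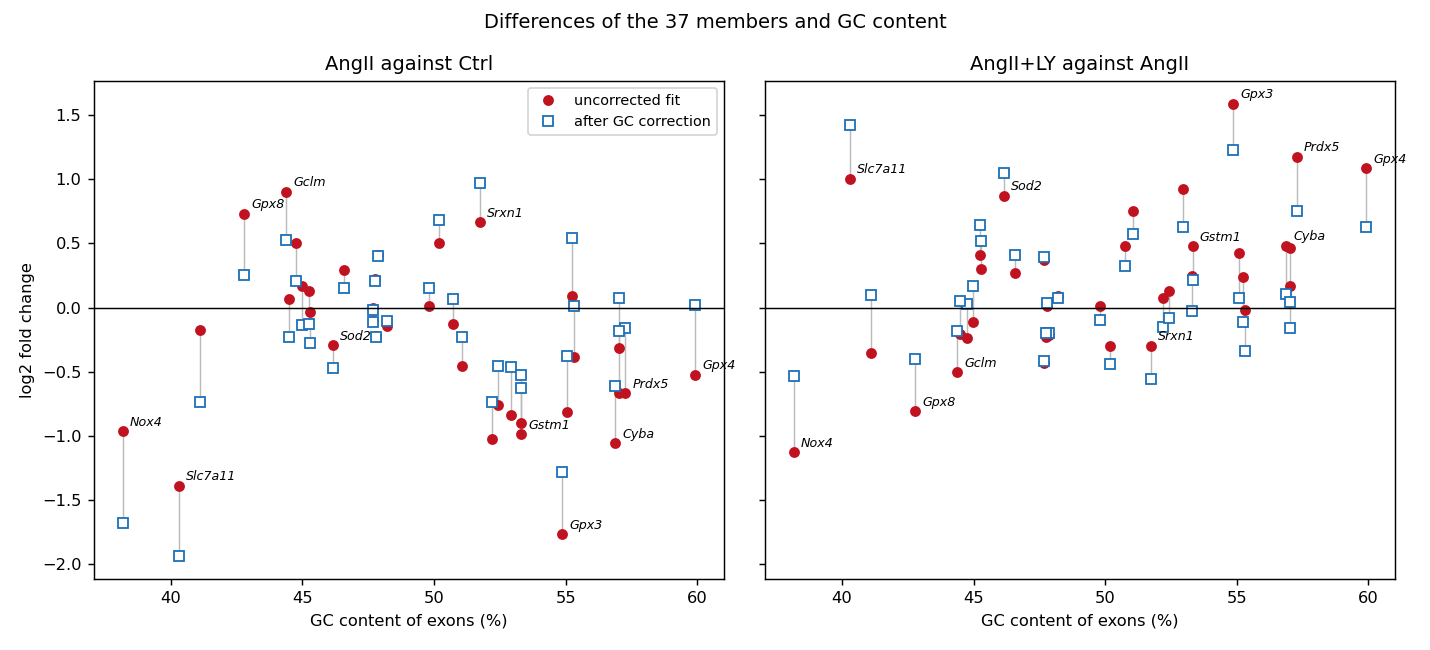
Log2 fold change of each of the 37 members against the GC content of its exons (%), in AngII against Ctrl (left) and AngII+LY against AngII (right), as red points before and blue squares after the GC correction. On the left the red points fall with GC content (rho -0.45) and on the right they climb (rho 0.52), while Gstm1 at left and Gpx4 and Prdx5 at right keep their side of 0 after correction.

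In AngII+LY against Ctrl mice 0 members were called, as were 0% of all genes by edgeR, while DESeq2 called 343 genes and 0 members. At an unadjusted p below 0.05, 3 members were higher (Gpx4, Prdx3 and Prdx5; 6.41% of all genes) and 6 lower (Nox4, Hmox1, Sod3, Prdx4, Gstm1 and Rac2; 7.39% of all genes). None of these 9 stayed below 0.05 when each mouse was left out in turn. Groups did not overlap for Sod1, which was higher (3.27% of all genes), and Hmox1, which was lower (4.89% of all genes).

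LY272015 alone gave no detectable difference in these genes, with 2 mice. By edgeR 0 members and 0% of all genes were called in LY against Ctrl mice, and 0 members lay at an unadjusted p below 0.05, where 1.38% of all genes were higher and 1.15% lower. DESeq2 called 21 genes, 0 of them members. The smallest unadjusted p among the members was that of Gsr (0.113, log2 fold change -0.36 ± 0.22). Groups did not overlap for Osgin1, which was higher (5.64% of all genes), and Gsr, which was lower (6.41% of all genes).

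The effect of LY272015 with AngII was compared with its effect without AngII by the interaction term. No member was called (0% of all genes), and 5 members lay at an unadjusted p below 0.05, against 15.4% of all genes in either direction. These were Prdx5 with a log2 difference of effects of 1.33 ± 0.38 (unadjusted p 0.00315, edgeR adjusted p 0.238), Gpx4 with 1.07 ± 0.38, Prdx2 with 0.89 ± 0.32, Gss with 0.81 ± 0.32 and Gpx8 with -0.86 ± 0.36. These 5 are 13.5% of the members, below the share of all genes, and only Prdx5 stayed below 0.05 without LY 2, one of the 2 LY mice. DESeq2 called Prdx5 (adjusted p 0.044) among 210 of the 19145 genes.

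Among the other genes of these pathways, a list of 100 of which 95 were tested, 12 were higher and 24 lower in AngII against Ctrl mice at an unadjusted p below 0.05, with a median log2 fold change of -0.31 and 5 called, beside 15% higher, 12.6% lower and 2.9% called over all genes. The 3 of smallest p were among the called. Cul3, the ubiquitin ligase scaffold that works with KEAP1, rose by 1.07 ± 0.22 (edgeR adjusted p 0.0439), from 3799 to 5740 normalised counts in Ctrl mice to 6823 to 12048 in AngII mice. Txnl1, a thioredoxin-like protein, rose by 1.08 ± 0.22 (adjusted p 0.0439), and Aifm2, which protects membranes from lipid peroxidation, fell by 0.69 ± 0.17 (adjusted p 0.0477). Blvrb, a biliverdin reductase, and Gstm2, a paralog of Gstm1, made up the 5 called and fell by 0.80 and 1.02. With the GC correction, the myeloid covariate or the installed default (legacy) setting of edgeR, 0 of all genes were called in this comparison.

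Between AngII+LY and AngII mice, 15 of the 95 were higher and 11 lower, and 2 were called, beside 11.3%, 13.6% and 0.919% of all genes. Msrb1, a selenoprotein that repairs oxidised methionine, rose by 1.13 ± 0.20 (edgeR adjusted p 0.0447), from 1122 to 1514 normalised counts in AngII mice to 2442 to 3363 in AngII+LY mice. Mgst3, a membrane-bound glutathione transferase, rose by 1.57 ± 0.34 (adjusted p 0.0497), and Park7, a protein that protects against oxidative damage, was at 0.93 ± 0.22 (adjusted p 0.0501). Here too 0 of all genes were called with the GC correction, the cardiomyocyte or myeloid covariate, or the legacy setting.

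Against Ctrl mice, 8 of the 95 were higher and 15 lower in AngII+LY mice, beside 6.41% and 7.39% of all genes, and 0 were called. Smallest in p were Msrb1 (0.87 ± 0.19, edgeR adjusted p 0.113), Selenop, the selenium carrier of plasma (-0.88 ± 0.22, adjusted p 0.133), and G6pdx, which makes NADPH (-0.68 ± 0.19, adjusted p 0.166). In LY against Ctrl mice 3 were higher and 0 lower, beside 1.38% and 1.15% of all genes. These were Gsta3, a glutathione transferase (1.14 ± 0.38), Selenop (0.62 ± 0.26) and Nos1, a nitric oxide synthase (2.67 ± 1.18), and the edgeR adjusted p was 1 for each. For the interaction, 10 were positive and 5 negative at an unadjusted p below 0.05, beside 15.4% of all genes in either direction, and Gsta3 (-2.29 ± 0.51), Msrb1 (1.39 ± 0.31) and Gstm7, a glutathione transferase (1.92 ± 0.50), had the smallest p, each at an edgeR adjusted p of 0.238.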

How the data were processed

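Aortic valve leaflets of 14 mice were measured by RNA-seq. Per the labels and the study's methods, the authors checked reads with FastQC 0.12.1, aligned them with HISAT2 to GRCm39 and counted them per gene with featureCounts; the strand setting is not given in the sources used here. The deposited values are whole-number counts (the table is named normalized), and among low counts even values exceed odd ones (13373 values of 2 against 10072 of 1), the reason for which is not given. Rows without a symbol (618) held 0.0361% of counts.

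The 19145 of 56941 genes whose mean count reached 10 were tested with edgeR 4.0.16 (R 4.3.3): TMM, glmQLFit with legacy=FALSE, 1 fit of the 4 groups, Benjamini-Hochberg adjustment over all tested genes. The installed default is the legacy setting, which was run as an alternative, as were DESeq2 1.42.0, limma 3.58.1, other filters, a GC correction, marker scores as covariates, a replicate block and leaving out each mouse. Myeloid and adipocyte covariates were added after seeing the data. Marker shares were compared by exact permutation tests, with the smaller one-sided p doubled. Members and lists were chosen with earlier results of these data known. Values in every mouse are given for the oxidase group, members at an unadjusted p under 0.05 in any comparison and members whose groups do not overlap in AngII against Ctrl or AngII+LY against AngII. Of other pathway genes the 3 of smallest p per comparison are named, and partners, except 1 item that is not reported here; Blvrb and Gstm2 were chosen after their values were seen. The fit was tested on simulated data. Replicates are separate mice. Depth was 20990655 to 73128220 counts, and counting error is small beside the spread between mice for all members but Slc7a11.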

Additional observations from a re-analysis of the deposited data

Results flagged for a closer look

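In groups of 4 mice, Dixon's test marked 1 mouse as apart from the other 3 in 5 of 111 cases tested, where chance alone gives about 1 in 20. The test sets the gap beside that mouse against the range of its group, so it does not rank mice by the size of a difference. Nox4 in Ctrl 1, Gpx3 in Ctrl 2 and Gclm in AngII 4, each the highest value of its group, were not among the 5. Gpx1 was low in AngII+LY 4 at 10888 normalised counts, as was Txnrd1 in the same mouse at 1982, and Prdx3 was low in AngII+LY 2 at 8205. Txnip was high in Ctrl 3 at 32124 and Hmox1 in AngII+LY 1 at 724. The effect of LY272015 with AngII differed from its effect without AngII at an unadjusted p below 0.05 for 5 members (13.5%, against 15.4% of all genes), by 1.33 for Prdx5, 1.07 for Gpx4, 0.89 for Prdx2, 0.81 for Gss and -0.86 for Gpx8 on the log2 scale, and none passed the edgeR adjustment over all genes, with adjusted p of 0.238 to 0.291. Without LY 2 only Prdx5 stayed below 0.05.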

How the results depend on the processing

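The number of members called depended on the setting, and the cause was not tested. In AngII against Ctrl mice 1 member was called. DESeq2 called 8 and a mean count of 100 gave 3. The count was 0 with the GC correction, adipocyte covariate, myeloid covariate, legacy edgeR, no filter, only the groups compared, the replicate block and the block with GC correction, and 0 to 4 without 1 mouse. Members at an unadjusted p below 0.05 numbered 17, with 8 under the GC correction and 6 with block and GC correction. The number was 6 with the adipocyte covariate, 6 with the myeloid covariate, and 11 to 17 without 1 mouse. Such totals can include members newly below 0.05. Of the 17, 4 were kept under the GC correction and 4 with block and GC correction. The adipocyte covariate kept 6, the myeloid covariate 5, and 8 were kept through every mouse left out in turn. In AngII+LY against AngII mice 2 were called. DESeq2 called 5, and the count was 0 with the GC correction, adipocyte, cardiomyocyte and myeloid covariates, legacy edgeR, no filter, only the groups compared, robust fit, replicate block and block with GC correction, and 0 to 4 without 1 mouse. Unadjusted, 9 became 5 under the GC correction, 4 with the cardiomyocyte covariate and 5 to 11 without 1 mouse. Of the 9, 4 were kept under the GC correction, 4 with the cardiomyocyte covariate and 5 through every mouse left out in turn. In AngII+LY against Ctrl mice 9 became 4 (adipocyte), 3 (cardiomyocyte), 1 (myeloid), 5 (limma), 2 (block) and 1 to 11 without 1 mouse. Of the 9, 2 were kept with the adipocyte and 1 with the cardiomyocyte covariate. Calls stayed at 0 to 0. In LY against Ctrl mice leaving out 1 mouse gave 0 to 1. For the interaction DESeq2 called 1. At an unadjusted p below 0.05 there were 5 members, and 1 to 6 without 1 mouse. With block and GC correction there were 2, and 0 of the 5 were kept.

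Among the members at an unadjusted p below 0.05 in a comparison and the oxidase group, directions reversed for Nox4 in AngII against Ctrl mice (1.28 with the myeloid covariate, 0.95 without Ctrl 1, and -1.32 to 0.95 over the mice left out), Gpx4 in AngII against Ctrl (0.0189 with GC correction), Xdh in AngII against Ctrl (0.0139 adipocyte, -0.37 to 0.0605 without 1 mouse, the highest without Ctrl 2), Rac2 in AngII+LY against AngII (-0.0288 with GC correction) and Xdh in AngII+LY against AngII (-0.0212 adipocyte, -0.48 cardiomyocyte, -0.00592 myeloid, and -0.0433 to 0.103 without 1 mouse, below 0 without AngII 1, AngII 4, AngII+LY 3 or AngII+LY 4). Of the other members 13 of 18 turned sign under at least 1 alternative in AngII against Ctrl and 17 of 23 in AngII+LY against AngII mice, Gpx3 (-0.86 with the cardiomyocyte covariate) among them. The cardiomyocyte share differed by 2.05 percentage points in AngII+LY against AngII mice, and by 1.58 to 2.46 without 1 mouse, where 3 against 4 mice cannot give a two-sided exact permutation p below 0.0571, the one-sided p being doubled. That in AngII against Ctrl was -0.83 (-1.24 to -0.313). The myeloid share differed by -0.0863 (-0.116 to -0.0472) in AngII against Ctrl and 0.0266 (0.00671 to 0.0385) in AngII+LY against AngII mice. Replicate numbers did not pair the mice, as 0 of 18 pairs of same-numbered libraries had deviations correlated above 0.1 (r -0.128 to 0.09).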
